A study of Mus musculus with 15 samples.

Results

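The comparison described here set choroid plexus RNA of 5 mice null for Add1 against that of 5 wild-type mice, 10 of the 15 arrays of the series. The remaining 5 arrays, from heterozygous mice, entered the fit only to estimate the spread between animals. All mice were on the C57BL/6J strain, 3 weeks old and labelled male, each gave 1 Affymetrix array, and the tissue was taken before hydrocephalus develops in null animals. The sources used here do not say how the null allele was made or which part of Add1 it lacks. Every probe set with 1 gene symbol was used, with the highest-mean probe set kept for each gene, which gave 19938 genes. Of these, 10069 exceeded a log2 value of 5.33 in at least 5 arrays and were tested. The effect given throughout is the null mean minus the wild-type mean on the log2 scale. A gene is termed called, and is said to rise or fall, where limma's adjusted p (Benjamini-Hochberg over all genes tested) was under 0.05. The account covers functions other than protein folding, the respiratory chain and the circadian clock.

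The choroid plexus is a folded epithelium over a vascular stroma in the brain ventricles. Its epithelial cells secrete cerebrospinal fluid, driven by ion transport across the apical and basal membranes, and carry vitamins, metals and hormones between blood and fluid. Alpha-adducin, the product of Add1, caps actin filaments and joins them to spectrin in the skeleton under the cell membrane. Because whole tissue was measured, fewer cells of a type and less RNA per cell cannot be told apart.

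The labelled tissue was checked on its defining genes. All 9 measured markers of choroid plexus epithelium, Ttr, Folr1, Kl, Otx2 and Clic6 among them, were tested, with mean wild-type values between 10.28 and 13.08 on the log2 scale, near the top of a range that ends at 13.89. The 4 lymphocyte markers lay at or below 5.33 in every array. Null arrays 1 and 5 did not match their sex label: Xist, the transcript of the inactive X chromosome, was at 9.09 and 9.69 there and at 3.11 to 3.88 in the other 13 arrays. The Y-linked Eif2s3y was at 3.19 and 3.34 in these 2 arrays and at 6.92 to 7.6 elsewhere. The numbers in the sample descriptions also differed between the genotypes: no null animal shared its leading number with a wild-type animal, and what the number stands for is not stated. Genotype and this number cannot be told apart in these 10 arrays.

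Null choroid plexus differed from wild type in 778 of the 10069 genes tested (7.73%). Of these, 420 were higher in null (4.17%) and 358 lower (3.56%), and the median difference over all genes tested was 0.01. Most differences were small: the median size among called genes was 0.34, and 84 of them reached 0.58, a change of about 1.5-fold. After centring each array on its median, 268 genes were higher and 552 lower, so the split between directions depends on the scaling. For 600 genes (5.96%) the ranges of the 2 genotypes did not overlap, with null higher in 348 (3.46%) and lower in 252 (2.5%). Without null arrays 1 and 5, 396 genes were called (3.93%), 254 higher (2.52%) and 142 lower (1.41%), and 346 of them were also called with all arrays. The number called was 390 without wild-type array 1, 443 without wild-type array 2, 450 without wild-type array 3, 400 without null array 1 and 438 without null array 3, whereas it was 1418 without null array 2. Among the called genes, null array 1 lay farthest from the wild-type mean in 436 and null array 2 lay nearest in 312. A total of 331 called genes kept their call in each of the 15 fits that left out 1 array. Of the 43 gene lists with at least 3 calls, the number called was over 1.5 times lower in 28 without wild-type array 1, in 25 without null array 1, in 23 without wild-type array 2, in 23 without null array 3 and in 19 without wild-type array 3, and over 1.5 times higher in 15 without null array 2. Of the 256 called genes chosen for naming, 140 were also called without null arrays 1 and 5.

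Add1 itself was measured at 7.96, 8.04, 7.78, 7.81 and 8.0 in the wild-type arrays and at 7.66, 7.74, 7.76, 7.46 and 7.41 in the null arrays. The groups did not overlap, although null array 3 was only just below wild-type array 3. The mean fell from 7.92 ± 0.116 to 7.61 ± 0.161 (SD, n = 5 each), a difference of -0.31 (SE 0.0791, limma adjusted p = 0.024), so the null signal was 80.6% of wild type. Over the 252 regroupings of these arrays, an exact permutation test (two-sided) gave p = 0.00794, the smallest it allows. Leaving out wild-type array 1, wild-type array 2 or null array 4 ended the limma call, with differences of -0.30 to -0.28 and adjusted p of 0.051 to 0.068, and the difference was -0.26 (adjusted p = 0.101) without null arrays 1 and 5. A probe set that lies outside the deleted part does not check the genotype, and whether this one does is not known here.

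The largest rise belonged to Wfikkn2, which encodes a secreted multidomain protease inhibitor that binds myostatin and related TGF-beta family ligands. Its wild-type arrays read 8.05, 8.09, 8.24, 8.54 and 8.04, and its null arrays 10.75, 9.18, 9.94, 9.66 and 9.60. Every null array was above every wild-type array, with null array 1 the highest. The rise was 3.1-fold (difference 1.63, SE 0.206, limma adjusted p = 0.000402), and it was 1.40 without null arrays 1 and 5. Rlbp1 encodes the cellular retinaldehyde-binding protein, best known from the visual cycle. It read 5.05, 5.08, 4.99, 5.31 and 4.80 in wild type and 6.67, 6.55, 6.39, 6.52 and 6.36 in null. The 2 groups were tight and more than 1 log2 unit apart, a 2.74-fold rise (difference 1.45, SE 0.0908, limma adjusted p = 7.49e-08), and the difference was 1.44 without null arrays 1 and 5.

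The windows around the transcription starts of these genes, the leading rises with a promoter entry, are shown for reference as RefSeq gives them on GRCm38.p6, from 250 bases before to 50 bases after the start. That of Rlbp1 is chr7:79386978-79387277 and that of Wfikkn2 is chr11:94242530-94242829, both read on the minus strand, with capitals marking a match to TATAAA on either strand.
Rlbp1: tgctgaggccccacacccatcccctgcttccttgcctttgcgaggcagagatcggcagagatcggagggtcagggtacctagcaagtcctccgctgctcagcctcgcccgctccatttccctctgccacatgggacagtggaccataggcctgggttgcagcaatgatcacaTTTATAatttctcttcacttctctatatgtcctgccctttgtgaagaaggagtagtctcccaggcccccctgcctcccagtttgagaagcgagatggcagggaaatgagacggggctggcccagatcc
Wfikkn2: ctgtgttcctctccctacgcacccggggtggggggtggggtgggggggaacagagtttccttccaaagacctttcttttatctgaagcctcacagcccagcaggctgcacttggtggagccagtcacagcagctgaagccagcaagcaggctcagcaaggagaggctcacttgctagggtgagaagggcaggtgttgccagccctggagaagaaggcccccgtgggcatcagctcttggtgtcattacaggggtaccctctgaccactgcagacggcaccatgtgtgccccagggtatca
The Rlbp1 window held 1 such match and the Wfikkn2 window 0. A match was present in 8.23% of the 8205 windows of tested genes, in 10.4% of those of genes that rose and in 9.73% of those of genes that fell. TAATCC, the letters bound by Otx proteins, was in neither window on either strand; it was in 7.0% of the windows of tested genes, 8.63% of genes that rose and 5.7% of genes that fell.

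Among the other rises, Rimklb, a synthetase that joins glutamate to N-acetylaspartate, read 5.04, 5.29, 5.24, 5.39 and 5.11 in wild type and 6.71, 6.21, 6.67, 6.29 and 6.26 in null. All null arrays lay above all wild-type arrays, by a mean of 1.21 (SE 0.111, limma adjusted p = 1.55e-05). Azin2, an inhibitor of the antizyme that sends ornithine decarboxylase for degradation, rose by 0.96 (SE 0.137, limma adjusted p = 0.000849), with wild-type arrays from 7.37 to 7.53 and null arrays from 7.96 to 9.04. Gpx3 encodes the secreted glutathione peroxidase. It read 5.47, 6.04, 5.82, 5.93 and 5.68 in wild type and 8.74, 6.37, 6.96, 6.50 and 7.13 in null. The groups did not overlap, but null array 1 stood far above the next null array. The difference was 1.35 (SE 0.3, limma adjusted p = 0.0114) with all arrays and 0.82 without null arrays 1 and 5. Sult1c2, a sulfotransferase, and Pon1, a lactonase of lipoprotein particles, likewise had null arrays 1 and 5 the highest. Their differences of 1.01 and 0.81 (limma adjusted p = 0.0156 and 0.00645) were 0.55 and 0.52 without those 2 arrays.

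Rises also took in genes of cell signalling and of the matrix. Cxcr4, the receptor of the chemokine CXCL12, read 5.14, 5.25, 5.27, 5.12 and 4.74 in wild type and 5.83, 5.82, 6.00, 5.91 and 6.01 in null. The null values were the tightest of the 20 largest rises and did not overlap wild type, with a difference of 0.81 (SE 0.0886, limma adjusted p = 9.25e-05). Osmr, the oncostatin M receptor subunit, rose by 0.81 (SE 0.115, limma adjusted p = 0.000849), from 4.99 to 5.22 in wild type to 5.61 to 6.30 in null. Cpxm2, a member of the carboxypeptidase family, rose by 0.83 (limma adjusted p = 0.00293). Penk, the precursor of enkephalins, had a difference of 1.27 (SE 0.338, limma adjusted p = 0.0293), with overlapping groups: null arrays 1, 3 and 4 read 6.72 to 7.14, while null arrays 2 and 5 read 5.28 and 5.44 against 4.75 to 5.34 in wild type. Its call was lost without any of wild-type arrays 1, 2 and 5 or null arrays 1, 3 and 4 (adjusted p 0.0553 to 0.0903), as was that of Unc80, part of a sodium leak channel, without wild-type array 1, wild-type array 3 or null array 3 (difference 0.84, then 0.8 to 0.81 with adjusted p 0.0574 to 0.0621). For 9 of the 20 largest rises and 0 of the 20 largest falls the wild-type mean was below 5.33, where array values are compressed. Rlbp1, Cxcr4 and Osmr were below that value in every wild-type array and above it in every null array. A gene this low in wild type can pass the filter through its 5 null arrays alone, so its being tested is not independent of a rise.

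Abhd1, an abhydrolase of the same chromosome as Add1, showed steps rather than a spread. Wild-type arrays 1, 2 and 5 read 5.78, 5.78 and 5.57, and wild-type arrays 3 and 4 both read 7.23. The 5 heterozygous arrays read 7.10, 7.18, 7.31, 7.37 and 7.07, and the null arrays 7.75, 7.97, 7.72, 7.71 and 7.84. The wild-type arrays at 7.23 were those whose descriptions start with 432, and those at 5.78 were those that start with 429, while the heterozygous array that starts with 429 read 7.18. The null arrays did not overlap either wild-type level, and the difference was 1.48 (SE 0.262, limma adjusted p = 0.00306). Abhd1 and Add1 are separated by 42 tested genes in the RefSeq gene order.

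**Figure D1:**
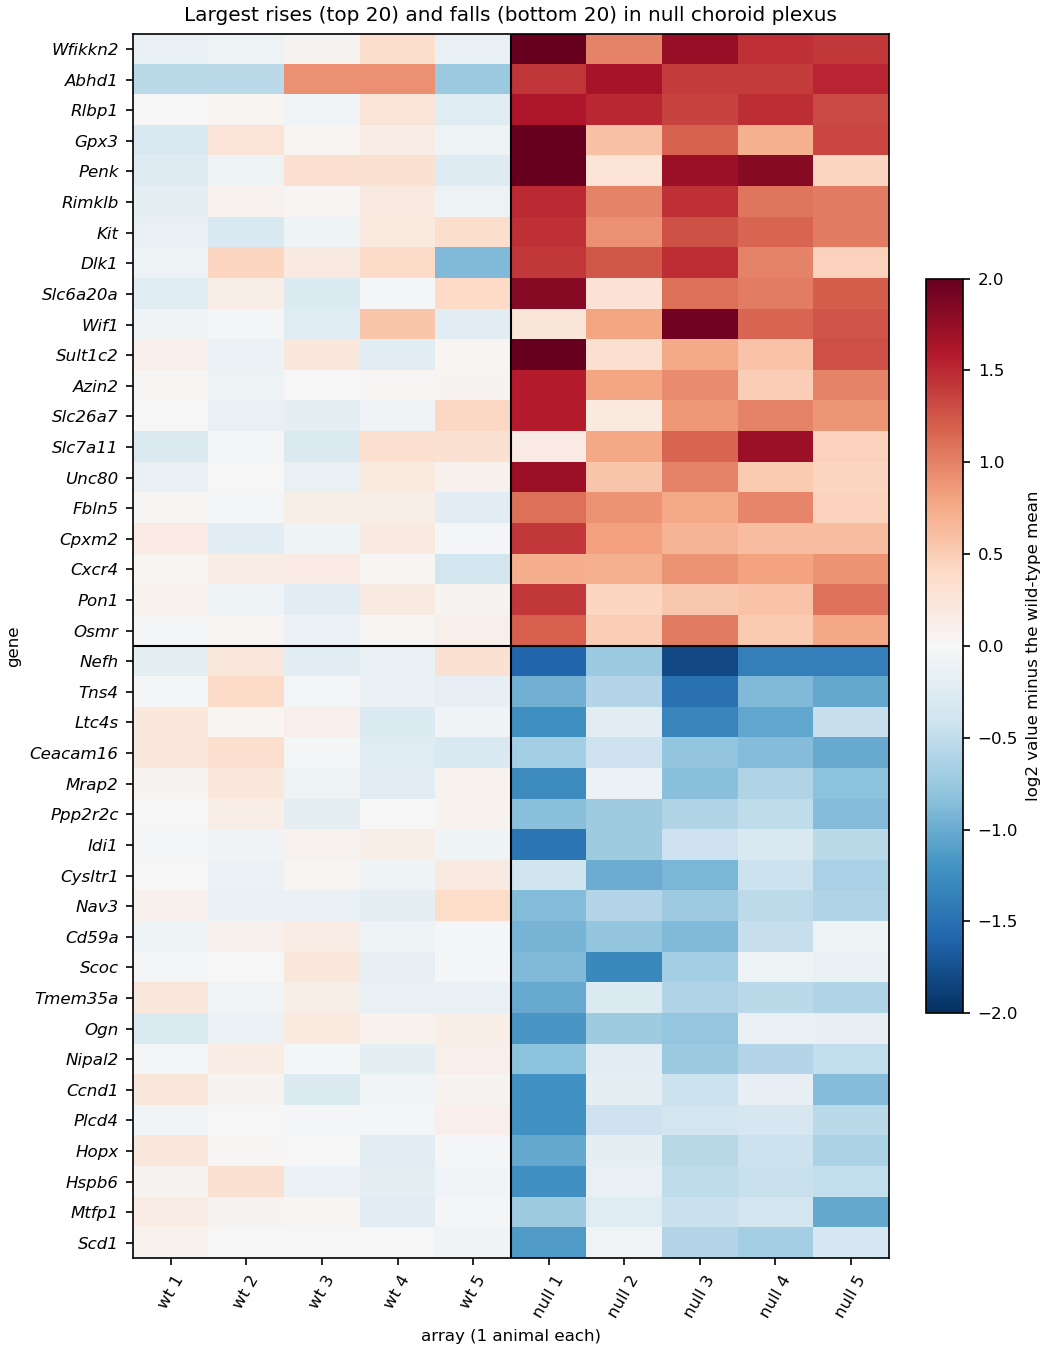
Heat map of the 20 largest rises (top) and 20 largest falls (bottom) among called genes, 1 column per array (wt, wild type). Colour gives the log2 value minus the wild-type mean of that gene. Null array 1 was the most changed null array in 15 of the rises and 12 of the falls, and the Abhd1 row shows the separate levels among the wild-type arrays.

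The largest fall was that of Nefh, the heavy neurofilament chain, an intermediate filament protein of large axons. Wild-type arrays read 6.91, 7.31, 6.88, 6.96 and 7.39, and null arrays 5.51, 6.35, 5.29, 5.73 and 5.73. No null array reached the lowest wild-type array, and the fall was 2.58-fold (difference -1.37, SE 0.165, limma adjusted p = 0.000326). The other neurofilament chains, Nefl and Nefm, were at or below 5.33 in every array, and of 8 neuronal markers the 3 that were tested did not pass, with a median difference of 0.02. The 5 tested markers of cerebellar granule neurons did not pass either, with a median difference of -0.51; their summed linear values ran from 586 to 640 in wild type and from 515 to 693 in null. Tns4, a tensin that links integrins to the cell interior, read 6.26, 6.68, 6.27, 6.16 and 6.13 in wild type and 5.34, 5.72, 4.81, 5.42 and 5.28 in null. Its groups did not overlap, and the difference was -0.99 (SE 0.129, limma adjusted p = 0.000423). Ppp2r2c, a regulatory subunit of protein phosphatase 2A, read 8.25, 8.38, 8.05, 8.25 and 8.32 in wild type and 7.41, 7.54, 7.65, 7.75 and 7.39 in null. Again all null arrays were lower, by a mean of 0.70 on the log2 scale (SE 0.0874, limma adjusted p = 0.000402).

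Both a synthase and a receptor of the leukotriene pathway fell. Ltc4s makes leukotriene C4 from its precursor, and Cysltr1 is a receptor for cysteinyl leukotrienes. Ltc4s read 8.69, 8.51, 8.57, 8.20 and 8.40 in wild type and 7.24, 8.24, 7.16, 7.43 and 8.01 in null. Null arrays 1, 3 and 4 were well below wild type and null arrays 2 and 5 were close to it, with null array 2 above the lowest wild-type array. Cysltr1 read 7.09, 6.98, 7.14, 7.01 and 7.27 in wild type and 6.70, 6.11, 6.18, 6.67 and 6.45 in null, without overlap. The differences were -0.86 for Ltc4s (SE 0.163, limma adjusted p = 0.00471) and -0.68 for Cysltr1 (SE 0.12, limma adjusted p = 0.00306), and they were -0.86 and -0.78 without null arrays 1 and 5. Cd59a, an inhibitor of the complement membrane attack complex, fell by 0.63 on the log2 scale (SE 0.12, limma adjusted p = 0.00471), with null array 5 at the lowest wild-type value of 9.50. Beside these, the complement and inflammation list had 17 tested members, of which 2 rose, Osmr and Cx3cl1, and 2 fell, Ltc4s and Cd59a. The small rise of Cx3cl1, a membrane-bound chemokine, by 0.27 was lost in 12 of the 15 fits without 1 array, those without any of the 5 wild-type arrays, heterozygous arrays 2 to 5 or null arrays 2 to 4 (adjusted p 0.0517 to 0.118).

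Further falls belonged to varied functions. Mrap2, an accessory protein of melanocortin receptors, fell by 0.73 on the log2 scale (SE 0.151, limma adjusted p = 0.00811), with null array 2 at 7.76 inside the wild-type range of 7.66 to 8.09. Idi1, an isomerase of cholesterol synthesis, fell by 0.69 (SE 0.158, limma adjusted p = 0.0142); null array 1 read 6.68 and the other null arrays 7.44 to 7.84, all below the wild-type range of 8.06 to 8.27. Nav3, a microtubule-associated protein, and Ceacam16, an adhesion protein of the inner ear, fell by 0.66 and 0.75 without overlap of the groups (limma adjusted p = 0.00163 and 0.00231). Plcd4, a phospholipase C, and Mtfp1, a protein of mitochondrial fission, fell by 0.57 and 0.56, also without overlap (limma adjusted p = 0.0108 and 0.00693). Ccnd1, the G1 cyclin D1, differed by -0.57 (SE 0.159, limma adjusted p = 0.0363), and by -0.26 (adjusted p = 0.174) without null arrays 1 and 5. Its call was also lost without any 1 of wild-type arrays 1, 2, 4 and 5 or null arrays 1, 3 and 5 (adjusted p 0.0537 to 0.0996). Scoc, Hspb6, Ogn and Scd1 lost their calls in the same way. For Scoc these were the fits without wild-type arrays 1, 2, 3 or 5 or null arrays 1 or 3 (adjusted p 0.0541 to 0.106), and for Hspb6 those without wild-type arrays 1 or 2 (0.0662 to 0.0735). Of the 40 largest rises and falls, 26 had arrays that did not overlap, 32 kept their call in every fit without 1 array, and 35 were called without null arrays 1 and 5.

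**Figure D2:**
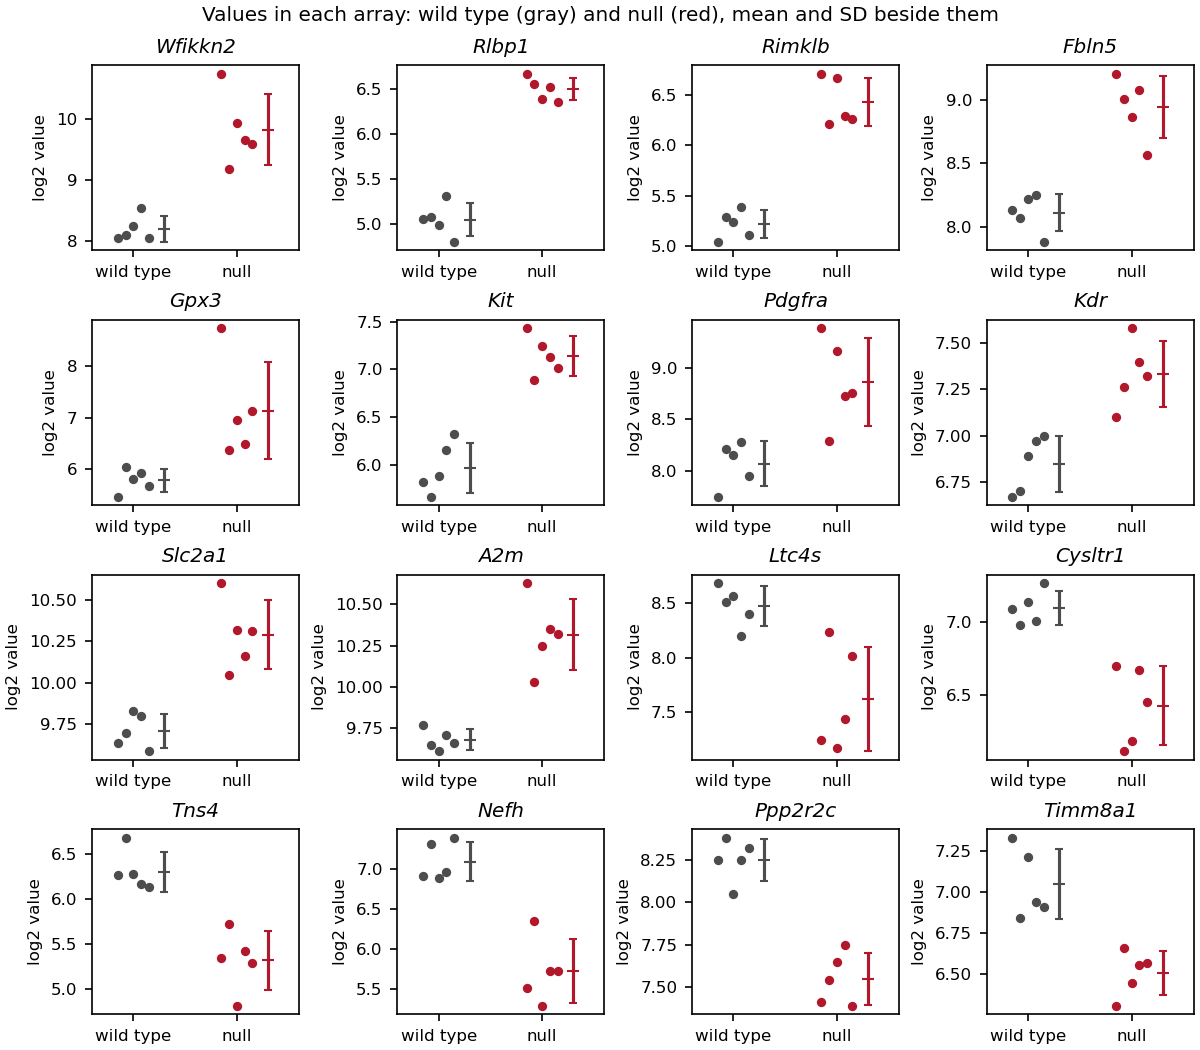
Log2 values of 16 genes in each array: 5 wild-type arrays (gray, left) and 5 null arrays (red, right), in array order, with the mean and SD beside each group. Wfikkn2, Rlbp1, Kit and Fbln5 were higher and Nefh, Tns4 and Ppp2r2c lower in all 5 null arrays, whereas the null arrays of Ltc4s reached into the wild-type range.

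Receptor tyrosine kinases, which bind growth factors outside the cell and phosphorylate targets inside it, moved mostly upward. Of 27 tested members 8 rose and 1 fell, against 4.17% and 3.56% of all genes tested, and the list's median difference was 0.19 against 0.01 over all genes. Without null arrays 1 and 5, 9 rose and 1 fell, with a median of 0.21. After median centring, 8 rose and 1 fell, with a median of 0.16. Kit, the receptor of stem cell factor, read 5.82, 5.67, 5.88, 6.16 and 6.32 in wild type and 7.43, 6.89, 7.24, 7.13 and 7.01 in null. Every null array lay above every wild-type array, with a difference of 1.17 (SE 0.162, limma adjusted p = 0.000611). Pdgfra, the receptor of platelet-derived growth factor on stromal and glial precursor cells, read 7.75, 8.21, 8.15, 8.28 and 7.95 in wild type and 9.38, 8.29, 9.16, 8.72 and 8.75 in null. Null array 2 was only just above the highest wild-type array and null array 1 was the highest, and the difference was 0.79 (SE 0.175, limma adjusted p = 0.0113) or 0.66 (adjusted p = 0.0624) without null arrays 1 and 5. Kdr, the endothelial VEGF receptor, read 6.67, 6.70, 6.89, 6.97 and 7.0 in wild type and 7.10, 7.26, 7.58, 7.40 and 7.32 in null. Here too all null arrays were higher, by a mean of 0.49 (SE 0.0899, limma adjusted p = 0.00392).

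Pdgfra, Kit and Kdr are consecutive among the tested genes of chromosome 5. All 3 rose, while limma called 0 of the 8 nearest tested genes, 4 on each side, and the smallest unadjusted p among those was 0.0983. The nearest on either side, Chic2 and Srd5a3, differed by -0.03 (SE 0.0752, limma adjusted p = 0.86) and 0.06 (SE 0.0934, limma adjusted p = 0.753). Add1 is on the same chromosome, where 6.48% of 664 tested genes were called, against 7.73% of all genes tested. Of the 40 tested genes nearest Add1, 3 were called, near that share: Fgfr3, Mfsd10 and Ppp2r2c. The X chromosome had the highest share called of all chromosomes, 10.9% of 304 genes, with chromosomes 15 and 13 close at 10.5% and 10.2%. In this comparison null arrays 1 and 5 carried Xist and no wild-type array did. Without those arrays the shares were 6.91% on the X chromosome, again the highest, and 3.01% on chromosome 5, against 3.93% of all genes.

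**Figure D3:**
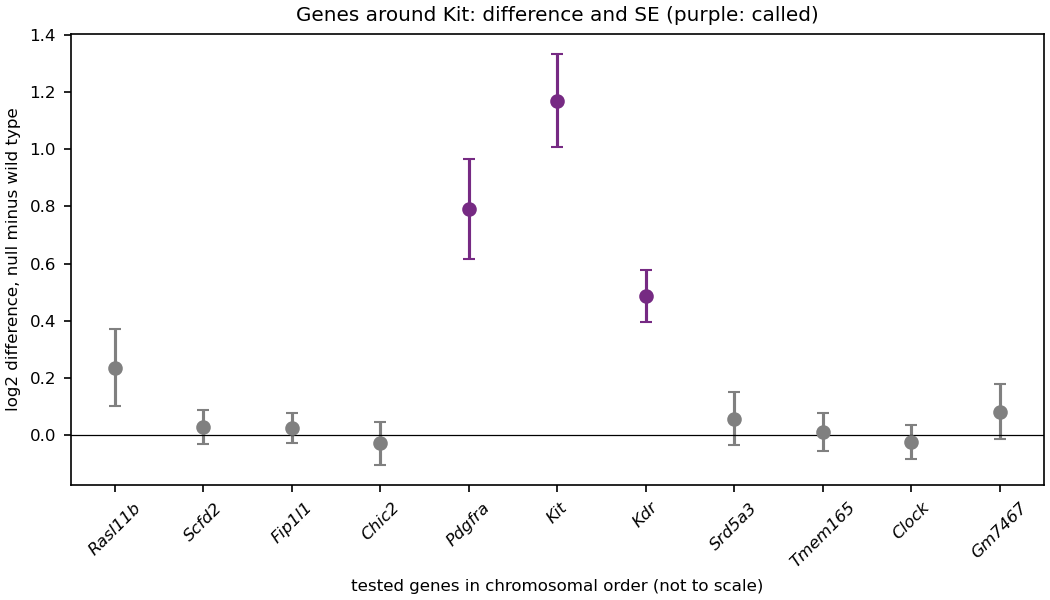
Log2 difference (null minus wild type) with its SE for Pdgfra, Kit, Kdr and the 4 tested genes on each side, in chromosomal order and not to scale. Purple points were called. Only the 3 receptor genes in the middle were called; the other 8 lay between -0.03 and 0.24.

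Among the other kinases, Igf1r, the receptor of insulin-like growth factors, rose by 0.54 (SE 0.122, limma adjusted p = 0.0136), from 8.02 to 8.32 in wild type to 8.50 to 9.22 in null. Insr, the insulin receptor, rose by 0.36 (SE 0.0734, limma adjusted p = 0.00693), and by 0.26 (adjusted p = 0.0543) without null arrays 1 and 5. Fgfr2 rose by 0.35 (limma adjusted p = 0.00498) and Ephb3, an ephrin receptor, by 0.35 (limma adjusted p = 0.00215), in both cases without overlap. Fgfr3 differed by 0.37 (limma adjusted p = 0.0485), and its call was lost in 11 of the 15 fits, those without any of wild-type arrays 1 to 4, heterozygous arrays 2 to 5 or null arrays 1 to 3 (adjusted p 0.0528 to 0.134). Egfr was the one that fell, from 6.41 to 6.75 in wild type to 6.04 to 6.37 in null (difference -0.37, SE 0.08, limma adjusted p = 0.00992). Of the 17 tested feedback genes of the ERK pathway downstream of these receptors, limma called 0, while 3 were higher at an unadjusted p under 0.05; the median was 0.11. Spry1, an inhibitor of receptor signalling, had the smallest adjusted p, 0.0798, at a difference of 0.22.

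The TGF-beta and BMP pathway had 41 tested members, of which limma called 11 higher and 0 lower, with a median of 0.15. The share called higher was 26.8%, against 4.17% of all genes tested. At an unadjusted p under 0.05 the numbers higher and lower were 16 and 0. Of the 11, 5 kept their call in every fit without 1 array; 6 were called without wild-type array 1. Without null arrays 1 and 5, 6 rose and 0 fell, with a median of 0.18. After median centring, 8 rose and 0 fell, with a median of 0.11. Beside the binding protein Wfikkn2, the ligand Bmp4 rose by 0.50 (SE 0.0911, limma adjusted p = 0.00355), from 6.99 to 7.17 in wild type to 7.33 to 7.77 in null. Its groups did not overlap. Of the intracellular Smads, Smad9, which carries BMP signals, rose by 0.37 (SE 0.0783, limma adjusted p = 0.00838), and Smad7, an inhibitor, by 0.39 (SE 0.0822, limma adjusted p = 0.00925). Ltbp1, which stores latent TGF-beta in the matrix, rose by 0.26 (SE 0.0574, limma adjusted p = 0.0121). Smad9 had an adjusted p of 0.0631 without null arrays 1 and 5. The other 6 calls, of Tgfbr3, Smad4, Bmp5, Gdf11, Id4 and Acvr1b, had differences of 0.21 to 0.50 and depended on single arrays, wild-type array 1 in 5 of the 6 and null array 1 in 5 of the 6 (adjusted p 0.0539 to 0.121 in the fits that lost them).

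Smaller pathway lists also had calls upward and few downward. In the Wnt list 5 of 35 rose and 0 fell (median 0.07). Its leading members were secreted antagonists: Wif1 had a difference of 1.08 (SE 0.233, limma adjusted p = 0.0103) with null array 1 at 5.46, inside the wild-type range of 4.97 to 5.77, and the other null arrays at 6.01 to 7.14. Sfrp5 rose by 0.62 (SE 0.113, limma adjusted p = 0.00343) without overlap, and the other 3, Dvl2, Sfrp1 and Fzd2, lost their calls without wild-type array 1 among others (adjusted p 0.0506 to 0.0939), which left 2 calls in the list. In the Notch list 3 of 20 rose and 0 fell (median 0.10). Notch1 read 5.88, 5.67, 5.72, 5.88 and 6.16 in wild type and 6.88, 6.60, 6.56, 6.42 and 6.15 in null, where only null array 5 reached into the wild-type range (difference 0.66, SE 0.112, limma adjusted p = 0.00258). In the hedgehog list 3 of 8 rose and 0 fell (median 0.13). Boc, a coreceptor of hedgehog ligands, rose by 0.53 (SE 0.0959, limma adjusted p = 0.00351); the calls of Gas1 and Ptch1 were ended by leaving out wild-type array 1 among others (adjusted p 0.0501 to 0.126), which left 1 call. In the insulin and IGF list 3 of 21 rose, Insr, Igf1r and Irs2, and 1 fell, Igf2r, the scavenger receptor that clears IGF2 (difference -0.21, limma adjusted p = 0.0323). The Irs2 call was ended by leaving out wild-type array 3 or null array 1 (adjusted p 0.0546 to 0.0552), and that of Igf2r by leaving out wild-type arrays 1 to 4 or null arrays 1, 4 or 5 (adjusted p 0.0538 to 0.075).

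Imprinted genes, expressed from the maternal or the paternal copy alone, had 28 tested members, of which 9 rose and 1 fell, with a median of 0.17. The shares were 32.1% and 3.57%, against 4.17% and 3.56% of all genes tested. With null arrays 1 and 5 left out, 6 rose and 0 fell, and after median centring 6 rose and 1 fell. The number called was 5 without wild-type array 1. Dlk1, a secreted or membrane-bound relative of Notch ligands, rose by 1.11 (SE 0.212, limma adjusted p = 0.00471). It read 7.94, 8.47, 8.22, 8.43 and 7.16 in wild type and 9.46, 9.28, 9.52, 9.03 and 8.50 in null, so the lowest null array was only just above the highest wild-type array. Slc22a18, an organic cation carrier of the imprinted cluster that holds Cdkn1c, read 5.61, 5.66, 5.68, 5.55 and 5.76 in wild type and 6.50, 6.26, 6.24, 6.19 and 5.97 in null (difference 0.58, SE 0.0852, limma adjusted p = 0.000939). Those groups were clearly apart. Cdkn1c itself, an inhibitor of the cell cycle, differed by 0.30 (limma adjusted p = 0.03) and did not pass when wild-type arrays 1, 2 or 5 or null arrays 1, 3 or 5 were left out in turn (adjusted p 0.0528 to 0.0882). Meg3, the noncoding RNA next to Dlk1, differed by 0.80 (SE 0.22, limma adjusted p = 0.0344) and did not pass when any of wild-type arrays 1, 2 or 3 or null arrays 1 or 3 was left out (adjusted p 0.0619 to 0.101). Zdbf2 and Impact rose by 0.53 and 0.25 (limma adjusted p = 0.00645 and 0.00939).

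**Figure D4:**
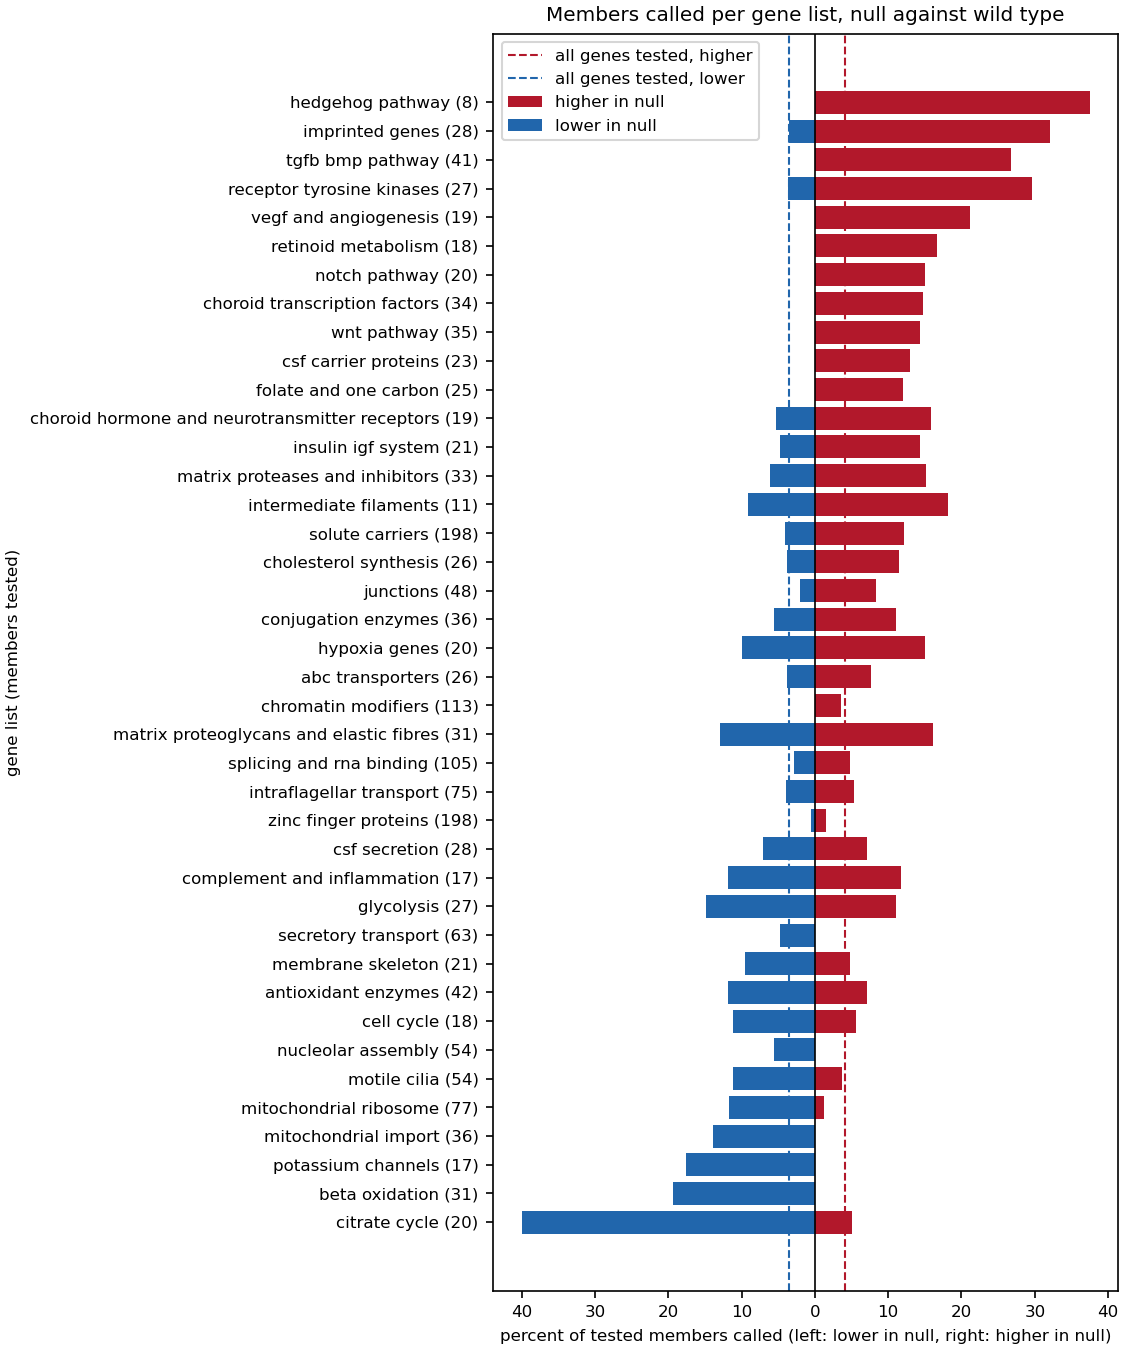
Percent of the tested members of each gene list that were called higher (red, right) or lower (blue, left) in null, for lists with at least 3 called members; the number tested is in parentheses and the dashed lines mark 4.17% and 3.56% for all genes tested. Receptor tyrosine kinase, TGF-beta and BMP, imprinted and hedgehog genes lie at the top, and citrate cycle, beta-oxidation, potassium channel and mitochondrial import genes at the bottom.

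Transport across the epithelium was described through 198 tested solute carriers. Of these 24 rose and 8 fell (12.1% and 4.04%), with a median of 0.03. After median centring, 20 rose and 9 fell, with a median of -0.01. Without null arrays 1 and 5, 19 rose and 2 fell, and 18 were called without wild-type array 1. Slc2a1, the glucose transporter of barrier cells, read 9.64, 9.70, 9.83, 9.80 and 9.59 in wild type and 10.60, 10.05, 10.32, 10.16 and 10.31 in null. All null arrays were above wild type (difference 0.58, SE 0.085, limma adjusted p = 0.000939), and they remained so with a difference of 0.46 without null arrays 1 and 5. Slc2a4, the insulin-responsive glucose transporter, rose by 0.57 (limma adjusted p = 0.00277), from 5.01 to 5.36 in wild type to 5.45 to 6.13 in null. Its wild-type mean of 5.21 was below 5.33, so its being tested is not independent of the rise. Slc16a8, a lactate carrier of choroid plexus and retinal pigment epithelium, rose by 0.56 (SE 0.103, limma adjusted p = 0.00392). Slc20a2, a sodium-dependent phosphate importer, rose by 0.58 (SE 0.0856, limma adjusted p = 0.000939), from 8.95 to 9.07 in wild type to 9.33 to 9.89 in null.

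Amino acid carriers were among the rises. Slc6a20a, a carrier of proline and related imino acids, had a difference of 1.09 (SE 0.198, limma adjusted p = 0.00347), with null array 2 at 9.74 inside the wild-type range of 9.18 to 9.86 and the other null arrays at 10.48 to 11.28. Slc6a15, a carrier of branched-chain amino acids and proline, rose by 0.72 (SE 0.106, limma adjusted p = 0.000939), from 8.49 to 8.80 in wild type to 9.01 to 9.55 in null. Slc7a11, the cystine importer, had a difference of 0.86 (limma adjusted p = 0.0371), or 1.22 (adjusted p = 0.00823) without null arrays 1 and 5. Its call did not hold when wild-type arrays 1, 2 or 3 or null arrays 3 or 4 were left out (adjusted p 0.0678 to 0.0995). Slc19a1, the reduced folate carrier, rose by 0.40 (SE 0.0788, limma adjusted p = 0.00645), and Slc22a8, an organic anion carrier that clears metabolites from the fluid, by 0.46 (SE 0.0985, limma adjusted p = 0.00992). Among the falls, Slc38a3, a glutamine carrier, changed by -0.38 (SE 0.0839, limma adjusted p = 0.0112), or by -0.25 (adjusted p = 0.0529) without null arrays 1 and 5, and Slc39a4, a zinc importer, by -0.50 (SE 0.0956, limma adjusted p = 0.00501). Null array 2 of Slc39a4 read 7.79 against at most 7.36 in the other null arrays.

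Genes of fluid secretion changed in both directions, with a median of 0.02. Of 28 tested, 2 rose and 2 fell (7.14% each, against 4.17% and 3.56% of all genes tested). Aqp1, the apical water channel, read 10.70, 10.67, 10.62, 10.70 and 10.69 in wild type and 11.02, 10.98, 11.08, 11.08 and 10.92 in null. Both groups were tight and apart (difference 0.34, SE 0.0574, limma adjusted p = 0.00254). Kcnj13, an inward rectifier potassium channel of this epithelium, read 12.72, 12.61, 12.52, 12.46 and 12.58 in wild type and 12.24, 12.31, 12.30, 12.44 and 12.45 in null, with null arrays 4 and 5 only just below wild-type array 4. Its difference was -0.23 (SE 0.0596, limma adjusted p = 0.027), and that of Kcne2, an accessory subunit of potassium channels, was -0.24 (SE 0.0619, limma adjusted p = 0.0255). Both calls ended on leaving out wild-type arrays 1 or 2 or null arrays 1 or 3, with adjusted p of 0.0657 to 0.0803 for Kcnj13 and 0.0576 to 0.0733 for Kcne2. Wnk4, a kinase that regulates chloride cotransporters, rose by 0.71 (SE 0.146, limma adjusted p = 0.00811), from 5.15 to 5.51 in wild type to 5.64 to 6.72 in null. Of the other transport lists, 2 of 26 ABC transporters rose and 1 fell, 1 of 17 proton pump subunits rose, and 3 of 17 potassium channels fell. The shares called were 11.5%, 5.88% and 17.6%, against 7.73% of all genes tested. In each of the 3 lists 0 of these calls were left without wild-type array 1.

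Secreted carrier proteins of the fluid rose in 3 of 23 tested cases and fell in 0 (median 0.05). Apoe, a lipid carrier, read 12.22, 12.20, 12.15, 12.29 and 12.26 in wild type and 12.89, 12.57, 12.68, 12.57 and 12.53 in null, without overlap (difference 0.42, SE 0.0676, limma adjusted p = 0.0017). Trf, transferrin, rose by 0.39 (SE 0.0866, limma adjusted p = 0.011), and was 0.35 higher with an adjusted p of 0.07 without null arrays 1 and 5. Chil1, a chitinase-like glycoprotein, rose by 0.40 (limma adjusted p = 0.00771). Apod, another lipid carrier, differed by 0.73 and did not pass (limma adjusted p = 0.0553). Trf also counts among 33 tested iron and copper genes, of which 2 rose and 0 fell (6.06% called, below the 7.73% of all genes tested). The other was Heph, a copper-containing ferroxidase of iron export, with wild-type arrays at 6.74 to 7.02 and null arrays at 7.22 to 7.59 (difference 0.54, SE 0.0793, limma adjusted p = 0.000939). Of 25 tested folate and one-carbon genes 3 rose, Slc19a1, Gnmt and Bhmt; the last pair of calls was lost without null array 1 or null array 3, among others (adjusted p 0.0525 to 0.126), which left 1 call without null array 1.

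Lists of mitochondrial function outside the respiratory chain, which also hold cytosolic enzymes such as Got1, moved the other way. The citrate cycle, beta-oxidation, mitochondrial ribosome and import lists together held 164 tested genes, of which 28 fell (17.1%, against 3.56% of all genes) and 2 rose, with a median of -0.13. Without null arrays 1 and 5, 13 fell and 0 rose, with a median of -0.12. The citrate cycle and its shuttles had 8 falls and 1 rise among 20 genes, with a median of -0.18. Got1, the cytosolic aspartate aminotransferase of the malate-aspartate shuttle, read 10.58, 10.54, 10.46, 10.33 and 10.34 in wild type and 9.84, 10.11, 10.10, 10.09 and 9.93 in null. No null array reached wild type, and the difference was -0.44 (SE 0.0696, limma adjusted p = 0.0017). The succinyl-CoA ligase subunit Sucla2, the fumarase Fh1 and the isocitrate dehydrogenase subunit Idh3a fell by 0.29, 0.30 and 0.27 (limma adjusted p = 0.00645, 0.00771 and 0.0103) and kept their calls in every fit without 1 array. The rise was that of Glud1, glutamate dehydrogenase, by 0.22 (limma adjusted p = 0.0201), a call ended by leaving out wild-type array 1 or null array 1 (adjusted p 0.0554 to 0.0629). The list had 4 calls without wild-type array 1.

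Beta-oxidation had 6 falls and 0 rises among 31 genes (median -0.08), led by Slc25a20, the carnitine carrier of the inner membrane (difference -0.35, SE 0.0609, limma adjusted p = 0.00277), and Etfdh, which passes electrons to ubiquinone (difference -0.27, limma adjusted p = 0.0107). The number called was 3 without wild-type array 1. The mitochondrial ribosome had 9 falls and 1 rise among 77 genes, with 71 of the 77 differences below 0 and a median of -0.13. Mrpl42 read 6.60, 6.38, 7.01, 6.51 and 6.43 in wild type and 6.11, 5.96, 5.96, 5.96 and 6.30 in null, a fall of 0.53 on the log2 scale without overlap (SE 0.102, limma adjusted p = 0.00524). Mrpl13 and Mrpl36 fell by 0.43 and 0.41 (limma adjusted p = 0.00433 and 0.00471). With null arrays 1 and 5 left out, 3 fell; the number called was 5 without wild-type array 1, 26 without null array 2 and 18 after median centring. Import genes had 5 falls and 0 rises among 36 (median -0.15). Timm8a1, a chaperone of the intermembrane space, read 7.33, 6.84, 7.21, 6.94 and 6.91 in wild type and 6.31, 6.66, 6.45, 6.56 and 6.57 in null, all lower than wild type (difference -0.54, SE 0.0875, limma adjusted p = 0.00215). Timm23, the channel of the inner membrane, fell by 0.36 (SE 0.0694, limma adjusted p = 0.00477). The other 3 import calls, of Timm8b, Timm17a and Timm10, were ended by leaving out wild-type array 1 or wild-type array 3 among others (adjusted p 0.0521 to 0.115), and the list had 2 calls without wild-type array 1, 12 without null array 2 and 12 after median centring.

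Glycolysis and its links to the mitochondrion changed in both directions. Of 27 tested genes 3 rose and 4 fell, with a median of -0.04. The rises were those of the transporters Slc2a1 and Slc16a8 and of Pdk1, a kinase of the pyruvate dehydrogenase complex, at 0.25 (limma adjusted p = 0.0389). The Pdk1 call did not hold in 7 of the 15 fits, those without wild-type arrays 2 to 5 or null arrays 1, 3 or 4 (adjusted p 0.0604 to 0.0921). Among the falls, Dlat, a pyruvate dehydrogenase subunit, fell by 0.31 (limma adjusted p = 0.0156), Pdk3, another kinase of that complex, by 0.34 (limma adjusted p = 0.00467), and Mpc1, the mitochondrial pyruvate carrier, by 0.36 (limma adjusted p = 0.0153). The Mpc1 call was ended by leaving out wild-type array 1 (adjusted p = 0.0507), and Dlat had an adjusted p of 0.102 without null arrays 1 and 5. Antioxidant genes were split as well, with 3 of 42 rising and 5 falling; 5 were called without wild-type arrays 1, 2 or 3. Prdx3 and Sod2, enzymes of the mitochondrial matrix that remove peroxide and superoxide, fell by 0.50 and 0.32 (limma adjusted p = 0.00372 and 0.0174), and Sod2 differed by -0.24 (adjusted p = 0.0631) without null arrays 1 and 5. Nqo1, a cytosolic quinone reductase, rose by 0.62 (SE 0.116, limma adjusted p = 0.00442), from 7.84 to 8.0 in wild type to 8.21 to 9.09 in null.

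**Figure D5:**
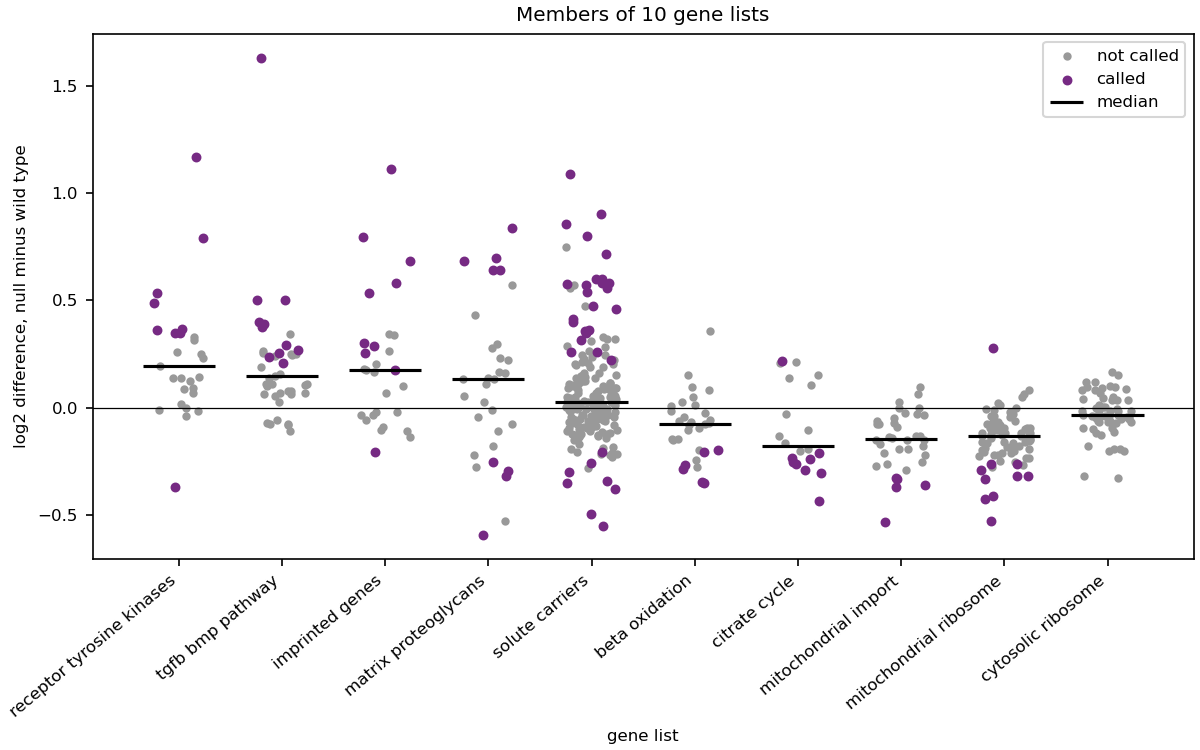
Log2 difference (null minus wild type) of each tested member of 10 gene lists, with called members in purple and the list's median as a bar. Medians run from 0.19 for receptor tyrosine kinases to -0.18 for the citrate cycle; none of the cytosolic ribosomal proteins at the right was called.

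Several large lists of housekeeping function had a share called below or near the 7.73% of all genes tested. Of 59 tested cytosolic ribosomal proteins limma called 0 (median -0.03), with 7 at an unadjusted p under 0.05, and the lowest adjusted p was 0.0514, for Rps27l and Rpl38. Of 31 aminoacyl-tRNA synthetases and 29 autophagy genes limma also called 0, with 5 and 4 at an unadjusted p under 0.05. Translation factors had 1 rise among 61, proteasome subunits 1 fall among 45, and lysosomal genes 2 falls among 40. Zinc finger proteins had 3 rises and 1 fall among 198. Chromatin modifiers had 4 rises and 0 falls among 113, with 92 of the differences above 0 and a median of 0.09. After median centring, chromatin modifiers had 1 rise and 0 falls, with a median of 0.05. Splicing and RNA-binding genes had 5 rises and 3 falls among 105 (7.62%, near the share of all genes). In the secretory transport list 3 of 63 fell, led by Tmed3, a cargo receptor of early secretory vesicles (difference -0.38, SE 0.0657, limma adjusted p = 0.00285). Its null array 5 read 7.83 against at least 8.05 in the other null arrays. Nucleolar assembly factors had 3 falls among 54, Nop10, Mrto4 and Imp4, of 0.49, 0.38 and 0.30, and each of the 3 kept its call in all fits without 1 array, although Imp4 did not pass without null arrays 1 and 5 (adjusted p = 0.0964). These counts moved both ways with single arrays. Without null array 2 they were 15 calls for secretory transport, 14 for chromatin modifiers, 21 for splicing, 9 for zinc finger proteins and 6 for nucleolar assembly. Without null array 1 they were 1 for secretory transport, 1 for chromatin modifiers, 2 for splicing and 1 for zinc finger proteins, and without wild-type array 1 they were 1, 1, 3 and 2.

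Among lists of lipid and retinoid metabolism, the share called was 15.4% for cholesterol genes, 16.7% for retinoid genes and 16.7% for conjugation enzymes. It was 2.94% for fatty acid synthesis and lipid droplet genes, against 7.73% of all genes tested. Cholesterol synthesis and efflux had 3 rises and 1 fall among 26 genes, yet 21 of the 26 differences were below 0 and the median was -0.17. The rises were outside the synthesis pathway: Apoe, Abcg1, a sterol efflux pump, and Srebf1, a transcription factor of lipid synthesis (difference 0.48, SE 0.102, limma adjusted p = 0.00939). The median was -0.07 without null arrays 1 and 5, and 12 genes of the list were called without null array 2. Beside Rlbp1, 2 of the 18 tested retinoid genes rose: Rdh10, which oxidises retinol, by 0.46 (SE 0.0778, limma adjusted p = 0.0025), and Dhrs3, which reduces retinal, by 0.34 (SE 0.0643, limma adjusted p = 0.00471). All 3 calls were kept without any 1 array and without null arrays 1 and 5. Rlbp1 was below 5.33 in every wild-type array, so its being tested is not independent of its rise. Of 36 conjugation enzymes 4 rose and 2 fell, with Cyp39a1, an oxysterol hydroxylase, higher by 0.62 (SE 0.0972, limma adjusted p = 0.00149) and Gstm1, a glutathione transferase, by 0.35 (limma adjusted p = 0.00508).

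The membrane skeleton, in which adducin acts, had 21 tested members, of which 1 rose and 2 fell, Add1 included, with a median of 0.04. The rise was that of Slc2a1, which is listed there because it anchors to adducin in red cells, and the other fall was that of Mpp1, a palmitoylated scaffold protein (difference -0.32, limma adjusted p = 0.0256). Leaving out wild-type arrays 1, 2 or 3 or null arrays 1 or 3 ended that call (adjusted p 0.0662 to 0.0751). The only actin regulator called of 53 was Capg, with a difference of 0.38, and leaving out null array 1 raised its adjusted p to 0.0564. Cell junction genes had 4 rises and 1 fall among 48 (10.4%, against 7.73% of all genes tested), with a median of 0.10. The number called was 3 without wild-type array 1, 9 without wild-type array 5 and 8 without null array 5. Tjp1, the tight junction scaffold ZO-1, read 7.44, 7.70, 7.58, 7.79 and 7.91 in wild type and 8.25, 8.06, 8.13, 8.21 and 8.02 in null, without overlap (difference 0.45, SE 0.0765, limma adjusted p = 0.00258). Pard6b, a polarity protein, rose by 0.41 (limma adjusted p = 0.0148), and Mpdz, a multi-PDZ scaffold of tight junctions, fell by 0.22 (SE 0.0521, limma adjusted p = 0.0151); without null arrays 1 and 5 neither passed (adjusted p = 0.0931 and 0.0631). Vim, the intermediate filament vimentin, rose by 0.72 (SE 0.164, limma adjusted p = 0.0128), with null array 1 at 10.73 and the other null arrays at 9.40 to 9.88, above the wild-type range of 9.11 to 9.31.

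Cilia genes had calls in both directions. Of 54 tested genes of motile cilia 2 rose and 6 fell (14.8%, against 7.73% of all genes tested), with a median of -0.05. The number called was 3 without wild-type array 1 and 17 without null array 2. The rises were Cfap54, a protein of the central apparatus of the axoneme (difference 0.52, SE 0.0796, limma adjusted p = 0.00134), and Ccdc153 (0.53, SE 0.115, limma adjusted p = 0.0107). Cfap61, a radial spoke protein, fell by 0.46 (SE 0.101, limma adjusted p = 0.0112). The dynein chains Dnaic1 and Dnah6 differed by -0.47 and -0.39, with calls ended by leaving out wild-type array 1 (adjusted p = 0.0539) for the former and by leaving out wild-type arrays 1, 2 or 3 or null arrays 1 or 3 for the latter (adjusted p 0.0518 to 0.0754). Intraflagellar transport and basal body genes had 4 rises and 3 falls among 75 (9.33%, against 7.73% of all genes tested). Without wild-type array 1, null array 1 or null array 3 the number called was 3, and 4 without wild-type array 2. Of the 7 calls, those of Mkks, Cep126, Bbs9, Bbs2 and Ift52 did not hold without 1 array or another (adjusted p 0.0506 to 0.118).

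Genes of the extracellular matrix changed in both directions. Proteoglycans and elastic fibre genes had 5 rises and 4 falls among 31 (median 0.13), with 4 called without null array 1 and 11 without null array 2. Fbln5, which assembles elastic fibres, read 8.13, 8.07, 8.22, 8.25 and 7.88 in wild type and 9.21, 9.01, 8.87, 9.08 and 8.57 in null. The groups were apart in every array (difference 0.84, SE 0.106, limma adjusted p = 0.000402). Fbln1, its relative in basement membranes, Dcn, a collagen-binding proteoglycan that the imprinted list also holds, and Thbs1, an adhesive glycoprotein, rose by 0.64, 0.68 and 0.70 (limma adjusted p = 0.00339, 0.00781 and 0.00339). Bgn, another small leucine-rich proteoglycan, differed by 0.64 (limma adjusted p = 0.034), or by 0.38 (adjusted p = 0.217) without null arrays 1 and 5, and its call did not hold in the fits without wild-type arrays 1 to 4 or null arrays 1, 4 or 5 (adjusted p 0.053 to 0.0976). Among the falls, Ogn, of the same family, differed by -0.59 (limma adjusted p = 0.0254), a call ended by leaving out wild-type array 3 or null arrays 1 or 3 (adjusted p 0.0576 to 0.0692), and the calls of Pcolce, Pcolce2 and Matn4 were ended by leaving out wild-type array 1 or null array 1 among others (adjusted p 0.0523 to 0.125). Of 29 collagens 1 was called, Col14a1, with a difference of -0.46 that was -0.19 without null arrays 1 and 5; its call was lost in 12 of the 15 fits without 1 array, all but those without heterozygous array 1, null array 2 or null array 4 (adjusted p 0.0582 to 0.117). Among 33 proteases and inhibitors 5 rose and 2 fell, with 2 called without wild-type array 3. A2m, a secreted inhibitor that traps proteases, read 9.77, 9.65, 9.61, 9.71 and 9.66 in wild type and 10.63, 10.03, 10.25, 10.35 and 10.32 in null, clearly apart (difference 0.64, SE 0.0827, limma adjusted p = 0.000423). Mmp14, a membrane-bound matrix protease, rose by 0.46 (SE 0.0797, limma adjusted p = 0.00285).

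Markers of cells other than the epithelium moved beside these groups. The summed linear values of 8 stromal markers, the Pdgfra, Dcn, Fbln1 and Ogn of the lists above among them, ran from 1800 to 2390 in wild type and from 2450 to 3010 in null, without overlap. None of them was at or below 5.33 in every array. Among the 8 tested, Pdgfra, Dcn and Fbln1 were called higher and Ogn lower, with a median difference of 0.13. These called genes also belong to the lists above, so the sums are not separate from those lists. The summed linear values of 9 markers of astrocytes and radial glia ran from 920 to 971 in wild type and from 1070 to 1380 in null, also without overlap. Of 7 tested, 1 was called, Sox2 (difference 0.35, SE 0.0751, limma adjusted p = 0.0103). Without null arrays 1 and 5 Sox2 did not pass (0.29, adjusted p = 0.0726), while Gfap and Aqp4 of the same markers were called. The endothelial sums overlapped, at 433 to 632 and 527 to 732, with Cdh5 and Kdr called of 5 tested. The epithelial sums overlapped too, at 29900 to 32300 and 29200 to 31700, as did those of ependyma, at 904 to 989 and 973 to 1070, where Ccdc153 was higher and Dynlrb2 lower among 5 tested. Mural cell, macrophage, oligodendrocyte and neuronal markers had 0 calls by limma among 3, 4, 6 and 3 tested, with 1 oligodendrocyte marker, Cldn11, and 0 of the others at an unadjusted p under 0.05. Cerebellar granule neuron markers, with the median of largest size among the cell types (-0.51), had 0 calls among 5 tested and 1, Zic1, at an unadjusted p under 0.05. The 1 tested red cell marker was not called. The mural cell marker Pdgfrb and the macrophage marker Cx3cr1 were called when leaving out null arrays 1 and 5. The part of stroma or glia in the rises of matrix genes, Pdgfra and the signalling lists was not tested.

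Blood vessel genes had 4 rises and 0 falls among 19 (21.1%, against 7.73% of all genes tested), with a median of 0.18. The number called was 2 without wild-type arrays 1, 2 or 3 or null array 4. Beside Kdr, Nrp2, a coreceptor of semaphorins and VEGF, rose by 0.42 (SE 0.0841, limma adjusted p = 0.00674). Cdh5, the cadherin of endothelial junctions, differed by 0.55 (limma adjusted p = 0.0274) and did not pass when any of wild-type arrays 1, 2 or 3 or null arrays 3 or 4 was left out (adjusted p 0.0555 to 0.0788), while Vegfd did not pass when any of wild-type arrays 1, 2 or 3 or null arrays 1 or 4 was left out (adjusted p 0.0563 to 0.0856). Of 34 tested transcription factors of choroid plexus and its dorsal midline origin 5 rose and 0 fell (median 0.13); 3 were called without wild-type array 1 or null array 3 and 9 without null array 2. Zic4, a zinc finger factor of the dorsal neural tube, read 6.23, 6.20, 6.06, 6.14 and 6.27 in wild type and 7.07, 6.58, 6.82, 6.73 and 6.69 in null, with no overlap (difference 0.60, SE 0.0807, limma adjusted p = 0.000548). Meis1, a homeodomain factor, rose by 0.31 (SE 0.0636, limma adjusted p = 0.00788). Of 19 receptors for hormones and transmitters 3 rose and 1 fell: the natriuretic peptide receptor Npr2 and the endothelin receptor Ednrb rose by 0.40 and 0.39 (limma adjusted p = 0.0134 and 0.0139), and Mrap2 fell. Ednrb had an adjusted p of 0.0578 without null arrays 1 and 5. The third rise, of the growth hormone receptor Ghr by 0.31, did not hold in the fits without wild-type arrays 1, 2, 4 or 5 or null arrays 1, 4 or 5 (adjusted p 0.0528 to 0.0924), and 10 genes of the list were called without null array 2.

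Among genes that respond to stress or handling, the immediate early and glucocorticoid lists had few calls. Of 14 tested immediate early genes 1 rose, Klf6, by 0.26, and its call ended on leaving out wild-type arrays 2, 3 or 4 or null arrays 1 or 3 (adjusted p 0.053 to 0.0696). Of 22 glucocorticoid-responsive genes limma called 0, while 4 were higher at an unadjusted p under 0.05; the median was 0.10, and 0.01 without null arrays 1 and 5. Hypoxia genes had 3 rises, Slc2a1, Pdk1 and Ndrg1, and 2 falls, P4ha1 and Higd1a, among 20, with 2 called without wild-type array 3. Interferon and antigen presentation genes had 1 rise among 25, that of Tapbp, which loads peptides on MHC class I (difference 0.33, SE 0.0659, limma adjusted p = 0.00693). Of 18 cell cycle genes 1 rose and 2 fell, and Ccng1, a p53-responsive cyclin, was lower by 0.41 on the log2 scale (SE 0.0942, limma adjusted p = 0.0134) or by 0.33 (adjusted p = 0.0612) without null arrays 1 and 5. Of 15 replication histone genes, whose near-identical copies can share probes, 0 rose and 2 fell. H2bc4 read 10.13, 10.02, 10.13, 9.80 and 9.87 in wild type and 9.32, 9.05, 9.15, 9.58 and 9.32 in null, without overlap (difference -0.71, SE 0.0987, limma adjusted p = 0.00067).

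The comparison without null arrays 1 and 5 also ended calls that rested on single arrays. Among these were the calls of Penk, Hspb6, Scd1, Kcne2, Kcnj13, Dvl2, Sfrp1, Tgfbr3, Smad4, Bmp5, Id4, Acvr1b, Gas1, Ptch1, Irs2, Igf2r, Cdkn1c, Glud1, Pdk1, Timm8b, Timm17a, Timm10, Abcg1, Higd1a, Mpp1, Capg, Pcolce, Pcolce2, Gnmt, Bhmt and Vegfd, with adjusted p of 0.0553 to 0.269 and every difference in the same direction as with all arrays. The call of Ghr was lost there too (difference 0.22, limma adjusted p = 0.183). These names are not a complete list: of the 256 called genes chosen for naming, 116 were not called without null arrays 1 and 5.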

How the data were processed

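Choroid plexus was placed in Trizol, and 250 ng of total RNA per animal was labelled with biotin, per the labels' protocols. The deposited table holds log2 values for 35556 probe sets in each array, made by the authors with Affymetrix Expression Console 1.1 and RMA, per the submitters' processing notes. RMA corrects background, gives all arrays the same distribution of values and merges each set's probes, so shifts common to most genes are removed. The log base was inferred from their range of 1.57 to 13.89; the sources used here give neither genome build nor annotation.

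Names came from the platform annotation (21789 probe sets with 1 symbol, 1621 with several, 12146 without), with symbols updated through RefSeq, and for the 999 genes with several probe sets the one with the highest mean was kept. The filter value of 5.33 is the median of the named probe sets' values. Groups came from the genotype labels. Each gene was fitted over all 15 arrays with lmFit and eBayes of limma 3.58.1 in R 4.3.3 (12 residual degrees of freedom before moderation), and the null minus wild-type contrast was adjusted over all genes tested. The fit was tested on simulated data. Add1 also had an exact permutation test. The number of arrays limits the precision; nothing in the labels says whether animals share a litter.

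The genes named are Add1, the 20 largest rises and 20 largest falls among called genes, and in each of 63 lists the called members and the 4 smallest p-values; gene models, receptor families and near-identical copies were passed over among the largest changes. Members and lists were chosen with earlier results of these data known, so no list was tested as a set and each is described by its counts and median. The replicate numbers in the labels do not pair the samples: correlations of same-numbered deviations from the group means ran from -0.223 to 0.065. Alternatives covered the filter, centring, normalization, variance model, array weights, covariates, the replicate block, the 2 mismatched arrays and each array left out.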

Additional observations from a re-analysis of the deposited data

Results flagged for a closer look

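In 38 of the 666 groups of 5 arrays examined (333 named genes in 2 genotypes), 1 array stood apart from the other 4 of its genotype by Dixon's criterion, with a critical value of 0.71; chance alone gives about 1 group in 20. Each value below is log2 and is followed by the nearest value of the same group.

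In null array 1, Cpxm2 was high at 6.69 (next 6.09) and Zfp36l2 at 7.24 (6.98). In that array Plcd4 was low at 5.18 (5.86), Slc25a5 at 10.69 (10.88), Mest at 10.48 (10.57), Mrpl52 at 5.77 (6.15) and Ccng1 at 9.32 (9.65). In null array 2, Slc25a20 was high at 8.32 (8.16), Slc39a4 at 7.79 (7.36) and Dlat at 8.69 (8.40), all nearer to wild type than the other null arrays. In null array 3, Ltbp1 was high at 5.73 (5.64) and Tars2 at 7.0 (6.83). In null array 4, Slc17a5 was low at 7.87 (8.01). In null array 5, Rdh13 was low at 6.23 (6.71), Tmed3 at 7.83 (8.05), Rbm5 at 8.47 (8.73) and Srsf6 at 7.89 (8.15).

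In wild-type array 1, Yars2 was high at 6.24 (6.01), H2bc9 at 7.12 (6.89) and Capg at 5.83 (5.46), while Insr was low at 8.08 (8.27), Glud1 at 8.98 (9.14) and Srsf5 at 9.49 (9.70). In wild-type array 2, Tns4 was high at 6.68 (6.27) and Steap2 at 10.45 (10.19). In wild-type array 3, Wnk4 was low at 5.15 (5.43), Sfrp5 at 6.00 (6.30) and Rab39b at 6.03 (6.14). In wild-type array 4, Wif1 was high at 5.77 (5.19), while Utp18 was low at 6.48 (6.61) and Ier5 at 5.57 (5.73). In wild-type array 5, Cxcr4 was low at 4.74 (5.12), while Slc22a8 was high at 8.33 (7.92), Slc6a9 at 7.03 (6.68), Bmp5 at 6.19 (5.67), Nfkbia at 7.65 (7.53), Ndrg1 at 6.95 (6.29) and Cavin1 at 6.57 (6.38).

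Probe sets without 1 gene symbol also carried signal, which the gene-level comparison does not use: limma called 90 of them, 68 of 3705 with no symbol listed (1.84%) and 22 of 765 with several (2.88%), against 524 of 11075 with 1 symbol (4.73%) in the same fit over all probe sets.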

How the results depend on the processing

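Of 333 named differences 332 kept their direction under every alternative run; Edn3, not called, was at -0.22 and at 0.07 with the label number as a covariate, and 13 were not tested under the stricter filter. Among the named genes, 129 of the 256 called kept their call in each of the 15 fits without 1 array. The number of calls varied more. Against 778 genes (420 higher, 358 lower) with all arrays and 90 unnamed probe sets, it was 461 (273 and 188; 21 unnamed) with null and wild type fitted alone, 493 (269 and 224) without moderated variances, 1320 (705 and 615; 201 unnamed) with array weights, 396 (254 and 142; 26 unnamed) without null arrays 1 and 5, 315 (207 and 108; 18 unnamed) with Xist as a covariate and 257 (146 and 111; 15 unnamed) with the leading label number as a covariate. Without the filter 220 genes were lower and 50 unnamed probe sets were called, and after median centring 268 were higher and 552 lower. With the replicate block the counts were 518 in all and 230 lower, with 35 unnamed; the numbers do not pair the samples. Without 1 array the counts ran from 390 to 1418 in all, 226 to 702 higher, 160 to 716 lower and 29 to 211 unnamed. The Add1 difference was no longer past the threshold at -0.26 with Xist, -0.27 with the label number and -0.31 with the replicate block. In every one of these cases the cause was not tested.

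Most list medians moved by less than the spread between arrays. Those that moved more, without null arrays 1 and 5, were hormone and transmitter receptors (0.03), conjugation enzymes (0.02), citrate cycle (-0.11), cell cycle (0.04), intermediate filaments (0.12) and complement and inflammation (0.14). With Xist as a covariate the same lists were at 0.04, 0.02, -0.12, 0.03, 0.11 and 0.14, and solute carriers at 0.07. With the label number they were proton pump (-0.02), hedgehog (0.22), hormone receptors (0.02), antioxidant (-0.03), Rab (0.03), lysosome (-0.04), autophagy (0.01), cell cycle (0.11), glucocorticoid (0.28), hypoxia (0.07), motile cilia (-0.16), interferon (-0.06) and complement (-0.05). After median centring they were proton pump (-0.10), fluid secretion (-0.01), antioxidant (-0.09), conjugation (-0.06), Rab (-0.04), autophagy (-0.06), splicing (-0.01), zinc finger (0.02), cell cycle (-0.02), actin (-0.02), intraflagellar transport (-0.03) and iron (-0.01). Without the filter they were proton pump (-0.03), insulin and IGF (0.03), hormone receptors (0.04), transcription factors (0.07), amino acid stress (-0.00), zinc finger (0.02), cell cycle (-0.01) and intermediate filaments (-0.01). Fluid secretion was at 0.06 after renewed quantile normalization, and with all probe sets glycolysis was at -0.09 and cell cycle at 0.04. Without 1 array the medians ran from -0.04 to 0.03 for conjugation, -0.08 to -0.03 for glycolysis, -0.03 to 0.01 for autophagy, -0.00 to 0.05 for cell cycle, 0.10 to 0.24 for intermediate filaments and 0.14 to 0.31 for blood vessel genes. Differences near 5.33 are compressed by the array's background, and the median SE of 0.076 limits what 5 animals a group can show.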
